A study of Mus musculus with 26 samples.

Results

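The cytosolic ribosomal protein genes were taken by name: protein-coding genes on the autosomes and the X chromosome whose symbol begins with Rpl or Rps and continues as a ribosomal protein number, together with Rpsa, Rplp0, Rplp1 and Rplp2. The rule found 84 genes, of 47642 with counts, of which 52 encode proteins of the large subunit and 32 proteins of the small subunit. Their messenger RNAs were measured by 3′ end RNA sequencing (QuantSeq), which reads 1 tag per transcript end, in left ventricles taken from males at an age of 40 days. The groups were 7 castrated and 6 sham-operated mice carrying the UtyGt(XS0378)Wtsi gene trap, an insertion in an intron of the Y-linked gene Uty, and 7 castrated and 6 sham-operated wild-type mice of the isogenic strain C57BL/6.Y<129P2>, here called gene-trap and wild-type mice. Surgery took place at about 10 days of age, and the allele is inherited, so that all cells carry it. The comparisons ask how the trap and the loss of the testes each affect the ventricle, and whether the trap alters the effect of castration.

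Cytosolic ribosomes are built from a small subunit, which decodes the messenger RNA, and a large subunit, which forms peptide bonds; apart from the stalk, each protein is normally present in 1 copy per subunit. Their messenger RNAs typically begin with a run of pyrimidines at the 5′ end, the terminal oligopyrimidine tract, through which mTOR signalling controls their translation. In the heart, ribosome supply limits how fast cardiomyocytes can add protein during growth, and the muscle-restricted paralogue Rpl3l takes the place of Rpl3 in part of the ribosomes of mature cardiomyocytes.

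Promoter windows from RefSeq on GRCm38.p6 were matched by symbol or gene ID for 64 of the 84 genes. Within 10 bases of the annotated start, 4 pyrimidine words were searched on the coding strand; they can overlap one another, and the other strand was not searched because the tract is read from the RNA. At least 1 of the 4 words was held by 23 of 64 ribosomal protein genes (35.9%), against 11.6% of 26961 other genes. The word CTTTC was held by 17.2% of ribosomal protein genes and 2.88% of other genes. The word CTTCC was held by 15.6% of ribosomal protein genes and 4.99% of other genes, the word CTCTT by 18.8% of ribosomal protein genes and 2.91% of other genes, and the word CTTTT by 6.25% of ribosomal protein genes and 2.38% of other genes. A match describes letters in the window and does not show a working tract. The windows of 5 genes whose levels the results turn on and of the paralogue Rpl3l are given here, 40 bases before to 20 bases from the start, 5′ to 3′ on the gene's strand, with the searched words in capitals. Rps23 (chr13:90923082-90923141, plus strand), Rpl35a (the second of 3 listed starts, chr16:33056442-33056501, plus strand) and Rps6 (chr4:86857348-86857407, minus strand) were higher after castration of wild-type mice, Rps10 (chr17:27635225-27635284, minus strand) was lower, Rps27 (chr3:90213629-90213688, minus strand) was higher after castration of gene-trap mice, and Rpl3l (the first of its listed starts, chr17:24727786-24727845, plus strand) held none of the words in this window. These 5 genes all hold a word and so do not stand for the 64, and the other 2 listed starts of Rpl35a held none.
Rps23: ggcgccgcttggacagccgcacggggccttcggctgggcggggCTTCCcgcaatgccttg
Rpl35a: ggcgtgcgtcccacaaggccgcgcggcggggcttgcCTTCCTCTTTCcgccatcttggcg
Rps6: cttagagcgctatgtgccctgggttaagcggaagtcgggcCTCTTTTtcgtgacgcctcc
Rps10: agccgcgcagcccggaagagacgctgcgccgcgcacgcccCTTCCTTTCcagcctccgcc
Rps27: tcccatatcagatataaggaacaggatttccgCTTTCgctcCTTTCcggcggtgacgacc
Rpl3l: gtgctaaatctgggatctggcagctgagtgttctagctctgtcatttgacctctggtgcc

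The libraries held 6357485 to 9399241 gene counts. Uty checked the labels: it averaged 0.584 ± 0.448 CPM (counts of a gene scaled to a common library size) in gene-trap castrated and 0.430 ± 0.227 CPM in gene-trap sham ventricles, against 8.76 ± 1.73 CPM in wild-type castrated and 7.53 ± 1.43 CPM in wild-type sham ventricles (SD, n = 7, 6, 7 and 6). All 12 cardiomyocyte markers were detected, while the atrial marker Bmp10 was at 0 in 26 libraries and the skeletal myosin genes Myh1, Myh2 and Myh4 stayed at or under 0.289 CPM. Gene-trap castrated replicates 1 to 4 stood apart from the other 22 libraries on the second principal component of all genes. In those 4 libraries 45.9 to 46.8% of reads had no unique alignment, against 41.9 to 45.9% in the others. Summed smooth muscle and pericyte markers lay at 1009 to 1371 CPM, against 1370 to 2063 CPM. Rgs5 alone had 528 to 1531 CPM over 26 libraries, so that sum is no measure of cell content. Results that rest on these 4 libraries are given with and without them.

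Summed over all 84 genes, ribosomal protein counts made up 1.54, 1.84 and 2.08% of gene counts in gene-trap castrated ventricles (lowest, median and highest of 7). The same share was 1.48, 1.52 and 1.64% in gene-trap sham (n = 6), 1.38, 1.46 and 1.52% in wild-type castrated (n = 7) and 1.42, 1.53 and 1.70% in wild-type sham ventricles (n = 6). By this share of all gene counts, every gene-trap castrated library lay above every wild-type castrated one. Replicates 1 to 4 held the upper part of that range, 1.84 to 2.08%, and replicates 5 to 7 lay at 1.54 to 1.75%. The shares of the other 3 groups overlapped. As a share of counts outside mitochondrially encoded genes, the 84 genes took 1.83 to 2.44% in gene-trap castrated ventricles. In wild-type castrated ventricles they took 1.69 to 1.86%, so by that share these groups overlapped. In tissue RNA, fewer cells that hold a transcript and less of it per cell cannot be told apart.

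**Figure D1:**
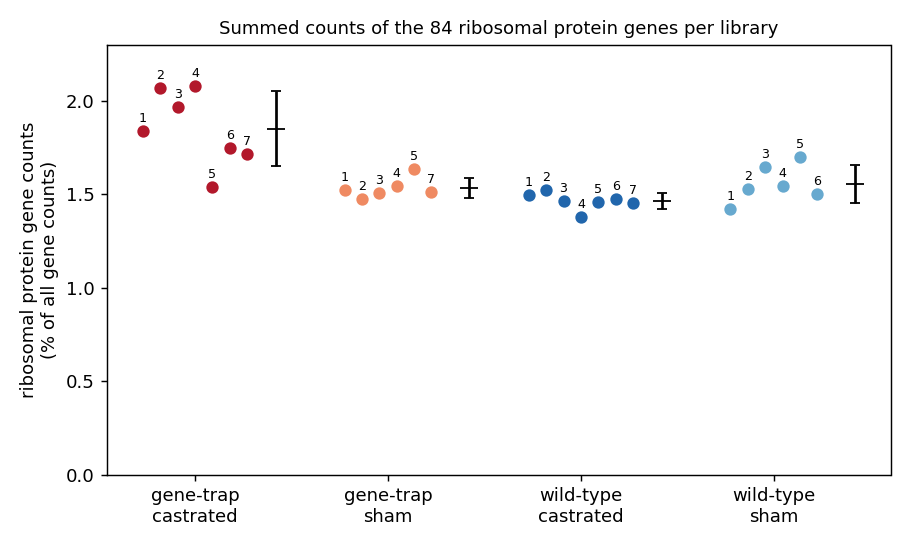
Summed counts of the 84 ribosomal protein genes as a percent of all gene counts (y axis) in each of 26 libraries (points, numbered by replicate) by group, with mean and SD beside each group. Gene-trap castrated libraries span 1.54 to 2.08%, and the 7 wild-type castrated libraries span 1.38 to 1.52%.

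Levels differed widely between the genes although most of the proteins are used in equal numbers. Because each transcript yields 1 tag, CPM was not scaled by length, and only the order of levels below is meant. Rps14, a protein of the small subunit's platform, was highest with a mean of 1285 CPM over 26 libraries, followed by the stalk gene Rplp1 (699 CPM), Rps21 (672 CPM) and Rps29 (500 CPM). At the low end, Rps6, the small-subunit protein phosphorylated by S6 kinases, averaged 8.95 CPM. Rpl10l had 0 to 1 count, Rpl24 0 to 6 counts and Rpl39l 0 to 13 counts per library, and these 3 passed the filter on low counts in none of the 5 comparisons, which leaves 81 genes tested.

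How well tags can be placed limits these levels. In the last 400 nt of their transcripts (GENCODE M21, GRCm38), 83 of 84 genes shared 31-nt words with other genes, pseudogenes among them, and for 25 of 84 more than 50% of the words were shared. Only Rpl3l shared none. Reads without a unique alignment are outside the gene counts, so levels of genes with shared ends are uncertain. Of the low-level genes above, Rpl24 shared 57.1% and Rps6 62.1% of these words, while Rpl39l shared 2.61% and Rpl10l 0.811%. Across the 84 genes, mean CPM and the shared percent had a Spearman rho of -0.25, a description over genes from the same libraries.

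Across the 26 libraries, the genes varied together only in part. Pearson's r between a gene's log2 CPM and the mean of the other members had a median of 0.55 over 81 genes, and 46 of 81 exceeded 0.5. With group means removed, the median was 0.43. Rps4x (0.88), Rpl19 (0.86), Rpl38 (0.86) and Rpl41 (0.84) were among those closest to the other members. Rps14 (-0.47), Rpl13 (-0.30), Rps12 (-0.30), Rps19 (-0.18) and Rps25 (-0.14) were the 5 least like them, and 9 of 81 genes had a negative r. The libraries share depth and preparation between genes, so these values are descriptions without a test.

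**Figure D2:**
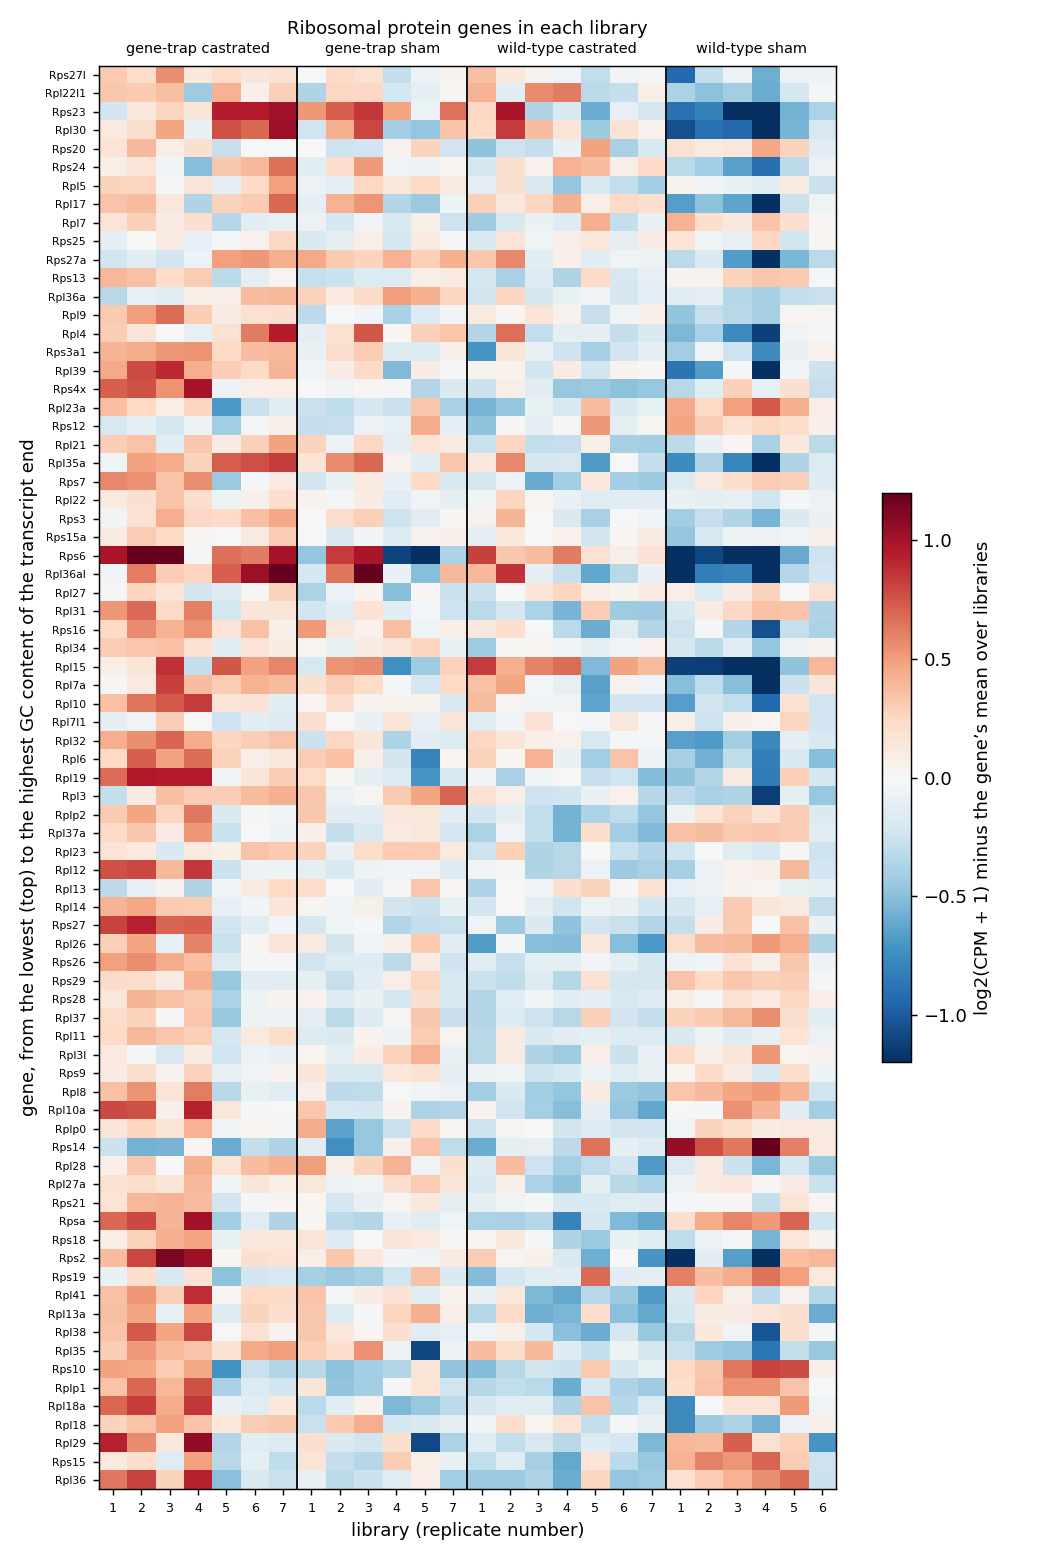
Each of 77 of the tested genes (rows) in each of 26 libraries (columns, by group and replicate number), as log2(CPM + 1) minus the gene's mean over libraries; rows run from the lowest GC content of the transcript end at the top to the highest at the bottom. In wild-type sham libraries the low-GC rows are mostly below their mean and many high-GC rows above it, and gene-trap castrated replicates 1 to 4 lie above the mean in most rows.

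Under sham surgery, ribosomal protein genes of gene-trap mice differed from wild type in both directions. Of 81 ribosomal protein genes, 17 were higher and 11 lower in gene-trap than in wild-type ventricles at an adjusted p under 0.05 by edgeR's quasi-likelihood test, Benjamini-Hochberg adjusted over 11569 genes. Over all genes tested, 11.9% were higher and 14.3% lower, 26.3% in all. The median log2 fold change was 0.09 over the ribosomal protein genes and 0.02 over all genes. The large subunit had 11 genes higher and 5 lower of 49, and the small subunit 6 and 6 of 32.

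Rps23, a protein of the decoding centre whose promoter window is printed above, had the largest log2 fold change among the genes called. It had 115, 183 and 219 CPM in gene-trap sham ventricles (lowest, median and highest of 6), against 26.6, 66.6 and 92.8 CPM in wild-type sham ventricles. The ranges did not overlap, and the log2 fold change was 1.51 ± 0.24 (SE, edgeR adjusted p = 0.00103). Rps27a, which is made as a fusion with ubiquitin, had 184, 197 and 210 CPM in gene-trap sham ventricles, against 52.4, 112 and 135 CPM in wild-type sham ventricles, again without overlap (0.92 ± 0.16, edgeR adjusted p = 0.00101). Rpl36a, on the X chromosome, had 182, 202 and 237 CPM in gene-trap sham ventricles, against 127, 138 and 155 CPM in wild-type sham ventricles (0.58 ± 0.10, edgeR adjusted p = 0.000978). Rpl3, which lies next to the peptidyl transferase centre, had 61.0, 80.1 and 104 CPM in gene-trap sham ventricles, against 28.7, 49.2 and 58.8 CPM in wild-type sham ventricles. Of the 81 tested genes, 6 had ranges that did not overlap, these 4 and Rpl35a among them. Such counts were not made over all genes, here or in the comparisons below. They therefore cannot show whether ribosomal protein genes differ from other genes in this. Rpl4 (0.72), Rpl28 (0.50), Rps16 (0.58) and Rps24 (0.55) were also higher on the log2 scale, with ranges that overlapped between the groups.

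The 11 lower genes were led by Rps10 and by Rps14, the member with the highest level. Rps10, a protein of the small subunit's head, had 163, 177 and 257 CPM in gene-trap sham ventricles, against 241, 322 and 403 CPM in wild-type sham ventricles (-0.79 ± 0.15, edgeR adjusted p = 0.00132). Rps14 had 711, 1022 and 1510 CPM in gene-trap sham ventricles, against 1288, 1938 and 3146 CPM in wild-type sham ventricles (-0.97 ± 0.20, edgeR adjusted p = 0.0028). In both genes a single gene-trap library, replicate 5, reached into the wild-type range. Rps19, mutated in human Diamond-Blackfan anaemia, fell by 0.64 on the log2 scale, Rpl23a by 0.57, the laminin-receptor precursor Rpsa by 0.54, Rpl36 by 0.51 and Rpl8 by 0.42. The count of lower genes was 6 without gene-trap sham replicate 2, 7 without gene-trap sham replicate 3, 7 without wild-type sham replicate 3 and 19 without wild-type sham replicate 6.

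The direction went with base composition. Across the 81 genes, the log2 fold change and the GC content of the transcript end had a Spearman rho of -0.43, and over 11555 genes of all kinds it was -0.46. The 17 higher genes had a median GC content of 46.4% and the 11 lower genes one of 53.4%. Wild-type sham libraries had a larger share of reads without a unique alignment, 43.5 to 45.9%, than gene-trap sham libraries, 42.0 to 43.9%. With that share as a covariate no ribosomal protein gene passed in either direction. Genotype and share largely went together in these libraries, so this fit cannot tell their effects apart. With the GC trend over all genes removed, 21 ribosomal protein genes were higher and 8 lower, and Rpl36 had a log2 fold change of 0.0047. Counts over all genes under these settings are not given. Cardiomyocyte markers summed to 71906 to 88599 CPM in gene-trap sham and 77102 to 135600 CPM in wild-type sham ventricles. Endothelial markers summed to 1694 to 2459 CPM and 1337 to 1824 CPM. Single genes such as Myl3 and Fabp4 weigh heavily in these sums, as given below. The part of these sums in the result was not tested.

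**Figure D3:**
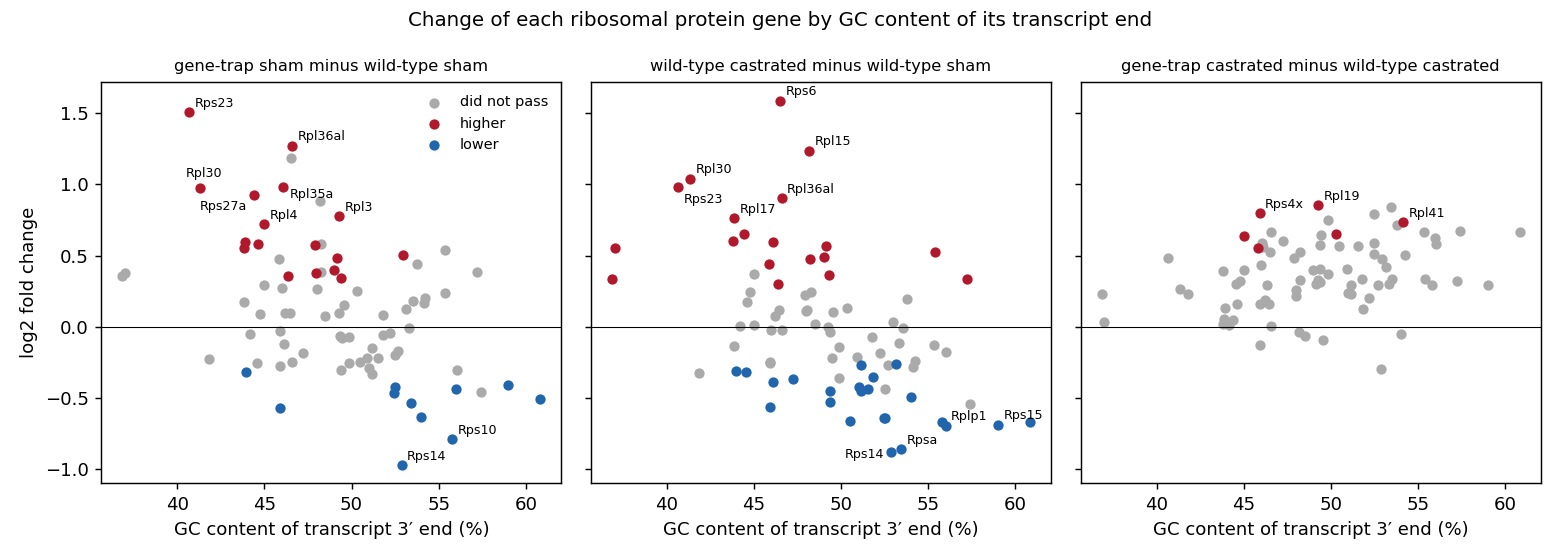
Log2 fold change (y axis) against the GC content of the transcript 3′ end in percent (x axis) for each of 81 ribosomal protein genes, in 3 comparisons named above the panels; red and blue points passed the edgeR test as higher and lower, grey points did not. In the left and middle panels points fall from low to high GC content (Spearman rho -0.43 and -0.51), and in the right panel 75 of 81 points lie above 0.

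Castration of wild-type mice changed about as many ribosomal protein genes as not. After castration 19 of 81 were higher and 23 lower than in sham-operated wild-type ventricles (edgeR, adjusted over 12291 genes), against 19.1% higher and 21.3% lower over all genes, 40.3% in all. This comparison and the one in sham-operated mice share the 6 wild-type sham libraries, so their values are not independent of each other. The median log2 fold change was -0.07, and it was 0.05 with the share of reads without a unique alignment as a covariate and 0.03 with the GC trend removed. The Spearman rho with GC content was -0.51 over the 81 genes and -0.48 over 12274 genes.

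Rps6 had the largest change among the higher genes: 7.74, 9.39 and 13.7 CPM in wild-type castrated ventricles, against 1.56, 2.68 and 6.00 CPM in wild-type sham ventricles (1.59 ± 0.40, SE, edgeR adjusted p = 0.00321). Its groups did not overlap, at a low level. Rpl30, which in mammals also takes part in selenocysteine insertion, had 105, 163 and 258 CPM in wild-type castrated ventricles, against 54.1, 75.8 and 126 CPM in wild-type sham ventricles (1.04 ± 0.23, edgeR adjusted p = 0.00117). Here the ranges overlapped, with wild-type sham replicate 6 inside the castrated range. Rpl15 (1.24), Rps23 (0.98), Rpl17 (0.76), Rps27a (0.65), Rps24 (0.60) and Rpl32 (0.49) were higher too on the log2 scale. Of the 14 higher genes with a promoter window, 9 held a pyrimidine word, as did 3 of 14 lower ones and 10 of 33 not called. In gene-trap against wild-type sham ventricles, 4 of 11 higher, 1 of 4 lower and 17 of 46 not called held one. Between castrated genotypes, 0 of 5 higher and 22 of 56 not called did. After castration of gene-trap mice, 1 of 2 higher and 21 of 59 not called did. For the difference between genotypes, 6 of 19 above 0 and 16 of 42 not called did. These counts were not tested. The count of higher genes was 12 without wild-type castrated replicate 2, 12 without wild-type sham replicate 1 and 11 without wild-type sham replicate 4.

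The stalk genes Rplp1 and Rplp2 were among the 23 that fell. Rplp1, which with Rplp0 and Rplp2 forms the stalk that recruits elongation factors, had 445, 532 and 589 CPM in wild-type castrated ventricles, against 670, 853 and 982 CPM in wild-type sham ventricles, without overlap (-0.70 ± 0.15, edgeR adjusted p = 0.00126). Rplp2 fell by 0.45, while Rplp0 had a log2 fold change of -0.27 and did not pass. Rpsa had 95.8, 128 and 146 CPM in wild-type castrated ventricles, against 144, 234 and 273 CPM in wild-type sham ventricles (-0.86 ± 0.18, edgeR adjusted p = 0.000972). Rps14 had 784, 1093 and 1871 CPM in wild-type castrated ventricles, against 1288, 1938 and 3146 CPM in wild-type sham ventricles (-0.88 ± 0.19, edgeR adjusted p = 0.000863), with wild-type castrated replicate 5 alone inside the sham range. Rps15 (-0.69), Rps10 (-0.67), Rpl26 (-0.66), Rpl8 (-0.64) and Rpl37a (-0.53) were lower as well. Of the 81 genes, 5 had ranges that did not overlap: Rpl17, Rps6 and Rps27a were higher, and Rplp1 and Rps28 lower. With the share of reads without a unique alignment as a covariate 13 genes were higher and 7 lower, and with the GC trend removed 15 and 15. Counts over all genes under these settings are not given. Sums of several marker lists moved with this comparison. All 12 cardiomyocyte markers were detected, and their sum was 65248 to 105782 CPM in wild-type castrated and 77102 to 135600 CPM in wild-type sham ventricles. The 7 skeletal muscle list genes summed to 1820 to 2685 CPM in wild-type castrated and 2737 to 4502 CPM in wild-type sham ventricles. These ranges did not overlap. Over 26 libraries, Ckm and Acta1 had medians of 2064.5 and 465 CPM, Tnnt3 0.244 CPM, and Myh1, Myh2, Myh4 and Actn3 0 CPM. The sum is therefore no measure of skeletal muscle content. The 6 erythroid markers summed to 1762 to 3902 CPM in wild-type castrated and 3339 to 7252 CPM in wild-type sham ventricles. The 10 endothelial markers summed to 1724 to 2756 CPM in wild-type castrated and 1337 to 1824 CPM in wild-type sham ventricles. Over 26 libraries, Fabp4 of this list had 185 to 2142 CPM, and Myl3 of the cardiomyocyte list 15232 to 53468 CPM. Single genes weigh heavily in these sums, which are no measures of cell content. The part of these marker levels in the counts of ribosomal protein genes was not tested.

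**Figure D4:**
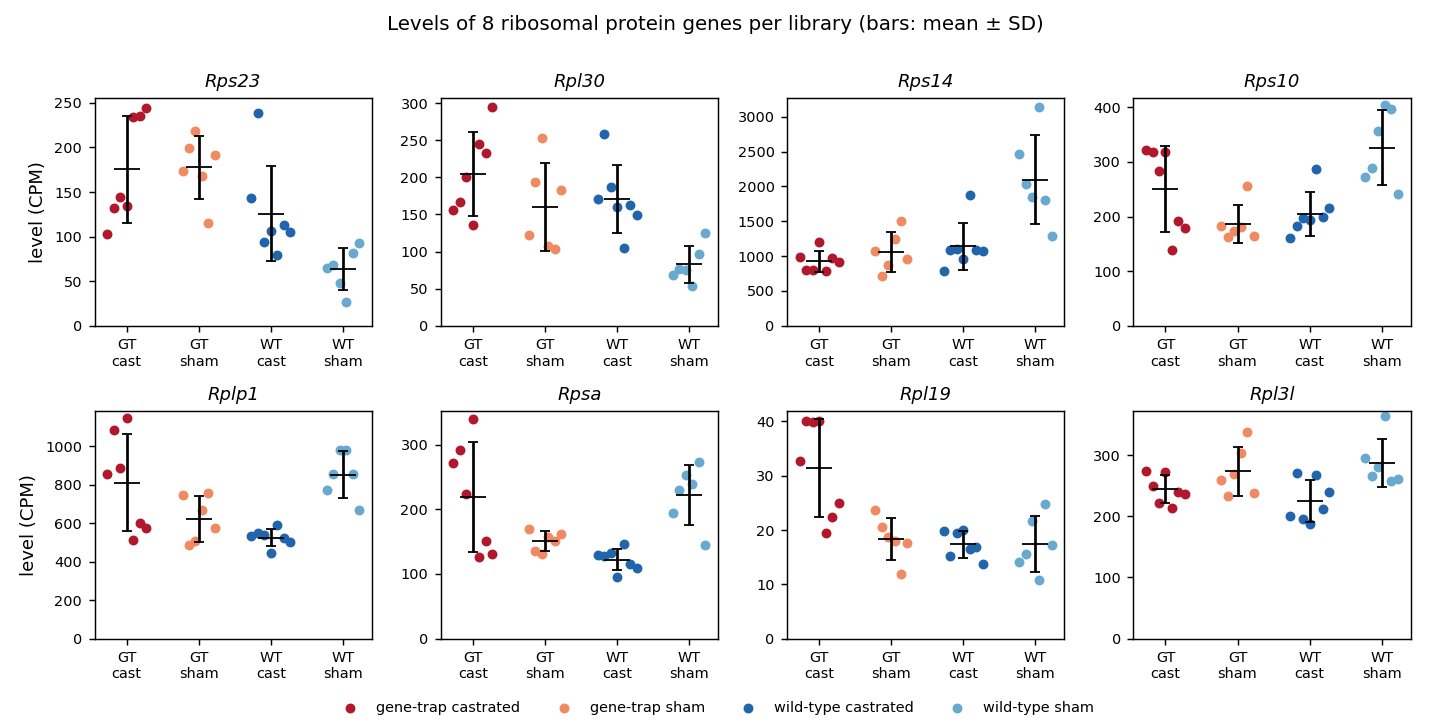
CPM (y axis, from 0) of 8 ribosomal protein genes in each library (points) of the 4 groups (GT, gene trap; WT, wild type; cast, castrated), with mean and SD as bars. On average, Rps23 and Rpl30 are lowest in wild-type sham ventricles and Rps14 and Rps10 highest there, and Rpl19 is highest in gene-trap castrated replicates 1 to 4.

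Among castrated mice, ribosomal protein genes were more often above than below wild type in gene-trap ventricles, and few passed the test one by one. The log2 fold change was positive for 75 of 81 genes, with a median of 0.33, against 0.00 over all genes. Of the 81, 6 were higher and 0 lower (edgeR, adjusted over 11693 genes), against 0.0941% higher and 0.111% lower over all genes, 0.205% in all; without adjustment, 57 had a p under 0.05 with a higher level and 0 with a lower one. In the authors' deposited table, 38 were higher in gene-trap castrated ventricles and 0 lower, of 515 genes called there in all. The share of all genes with an unadjusted p under 0.05 is not given.

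Among the 6 genes were Rps3a1, Rpl19, Rpl41, Rps4x and Rpl39, and the 6 had an adjusted p between 0.0412 and 0.0487 by edgeR. Rps3a1, a small-subunit protein next to the mRNA exit, had 129, 145 and 158 CPM in gene-trap castrated ventricles, against 66.3, 93.6 and 121 CPM in wild-type castrated ventricles (0.64 ± 0.12, SE). Rpl39, which lines the peptide exit tunnel, had 59.1, 68.4 and 94.2 CPM in gene-trap castrated ventricles, against 42.6, 51.8 and 54.0 CPM in wild-type castrated ventricles (0.55 ± 0.12). In both genes, and in Rpl32, the groups did not overlap, and these 3 were the only ones of 81. Rpl19 had 32.7, 40.1, 39.9 and 40.1 CPM in gene-trap castrated replicates 1 to 4 and 19.4, 22.4 and 25.0 CPM in replicates 5 to 7, against 13.8, 17.0 and 20.1 CPM in wild-type castrated ventricles (lowest, median and highest). Its log2 fold change was 0.85 ± 0.17, and only replicates 1 to 4 and 6 and 7 exceeded the wild-type range. X-linked Rps4x had 129, 134, 114 and 156 CPM in replicates 1 to 4 and 74.1, 82.4 and 82.4 CPM in replicates 5 to 7, against 55.2, 56.95 and 82.7 CPM in wild-type castrated ventricles (0.80 ± 0.16). For Rps4x, replicates 5 to 7 lay inside the wild-type range. Rpl41 had a log2 fold change of 0.73 ± 0.14.

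This set of calls depended on single libraries. Without gene-trap castrated replicates 1 to 4, 0 genes passed in edgeR, and the median log2 fold change was 0.17; 71 of 81 genes still had a higher mean log2 level in replicates 5 to 7 than in wild-type castrated ventricles. No gene passed without any one of gene-trap castrated replicates 1, 2, 3 or 4 or of wild-type castrated replicates 3, 4, 6 or 7. Leaving out wild-type castrated replicate 5 gave 2, replicate 1 gave 12 and replicate 2 gave 17; leaving out gene-trap castrated replicate 6 gave 11, replicate 7 gave 14 and replicate 5 gave 31. DESeq2's test called 33, and 0 passed with the share of reads without a unique alignment as a covariate, which was 42.4 to 46.8% in gene-trap and 41.9 to 44.6% in wild-type castrated libraries. Mitochondrially encoded genes took a median of 15.4% of gene counts in gene-trap and 18.2% in wild-type castrated libraries. Without them 4 genes passed. Counts over all genes under these settings, and with libraries left out, are not given, so the counts here have no background share.

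Castration of gene-trap mice raised 3 ribosomal protein genes and lowered 0 of 81 in edgeR, against 0.155% higher and 0.252% lower over all 12291 genes, 0.407% in all. The log2 fold change was positive for 70 of 81, with a median of 0.23 and 0.01 over all genes. At an unadjusted edgeR p under 0.05, 34 genes were higher and 1 lower. The share over all genes at that threshold is not given, so this count has no background beside it. This comparison shares the 7 gene-trap castrated libraries with the one before. Rpl9 had 123, 141 and 182 CPM in gene-trap castrated ventricles, against 87.1, 107 and 114 CPM in gene-trap sham ventricles (0.49 ± 0.11, SE, edgeR adjusted p = 0.0415). Rpl32 had 158, 179 and 215 CPM in gene-trap castrated ventricles, against 102, 119 and 157 CPM in gene-trap sham ventricles (0.51 ± 0.12, edgeR adjusted p = 0.0458). Neither gene overlapped between the groups, and no other of the 81 was free of overlap.

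Rps27, a zinc-finger protein of the small subunit, was split within the gene-trap castrated group. It had 345, 376, 319 and 323 CPM in replicates 1 to 4 and 167, 179 and 192 CPM in replicates 5 to 7, against 153, 167 and 193 CPM in gene-trap sham ventricles (0.66 ± 0.16, edgeR adjusted p = 0.0495). Replicates 5 to 7 lay inside the sham range. With no count over all genes given for libraries left out, 0 of the 81 genes passed without replicates 1 to 4, and the median was 0.08. The count also went to 0 without any one of gene-trap castrated replicates 1 to 4, gene-trap sham replicates 1, 4, 5 or 7, wild-type castrated replicates 3, 6 or 7, or wild-type sham replicates 2 or 3, and to 1 without wild-type castrated replicates 2 or 4. It lay between 5 and 13 without gene-trap castrated replicates 5, 6 or 7, gene-trap sham replicate 2, wild-type castrated replicates 1 or 5, or wild-type sham replicates 1, 5 or 6.

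The effect of castration differed between the genotypes for many of these genes. The test of the difference, castration effect in gene-trap minus that in wild-type mice, was passed by 29 of 81 genes above 0 and 1 below 0 (edgeR), against 11.8% and 8.36% of 12291 genes, 20.1% in all. The median difference was 0.27 on the log2 scale, against -0.02 over all genes. Of the 29 genes, 19 had fallen with castration in wild-type mice, which share their libraries with this test.

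Rpsa had the largest difference. It had 126, 223 and 340 CPM in gene-trap castrated, 131, 155 and 170 CPM in gene-trap sham, 95.8, 128 and 146 CPM in wild-type castrated and 144, 234 and 273 CPM in wild-type sham ventricles. Its log2 change with castration was 0.53 ± 0.18 in gene-trap mice, which did not pass (adjusted p = 0.125), and -0.86 ± 0.18 in wild-type mice, a difference of 1.39 ± 0.26 (SE, edgeR adjusted p = 0.00588). Rplp1 differed by 1.08 ± 0.22 in the same way: 514, 854 and 1146 CPM in gene-trap castrated and 485, 619 and 757 CPM in gene-trap sham ventricles stood beside the wild-type values given above. Rpl36 (1.18), Rps10 (1.09), Rps27 (1.02) and Rpl8 (0.94) were also above 0 on the log2 scale. The single gene below 0 was Rps27a, with a difference of -0.86 ± 0.23 (edgeR adjusted p = 0.0128): its change with castration was -0.22 ± 0.16 in gene-trap mice and 0.65 ± 0.17 in wild-type mice. Without gene-trap castrated replicates 1 to 4, 0 of the 81 genes passed in either direction. The same held with the share of reads without a unique alignment as a covariate. Counts over all genes under these settings are not given. The 29 genes had a median GC content of 51.0%, and rho with GC content was 0.53 over the 81 genes and 0.48 over 12274 genes. Leaving out 1 library gave 2 genes below 0 without gene-trap castrated replicate 5, gene-trap sham replicate 5 or wild-type castrated replicate 5, 3 without gene-trap castrated replicate 6, 4 without gene-trap castrated replicate 7 and 6 without wild-type sham replicate 6.

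The paralogue pairs are given with the values of both genes. Rpl3l had 214, 240 and 274 CPM in gene-trap castrated, 233, 264 and 338 CPM in gene-trap sham, 187, 212 and 271 CPM in wild-type castrated and 258, 273 and 363 CPM in wild-type sham ventricles. Its mean was above that of Rpl3 in every group. No word of the Rpl3l transcript end is shared with another gene, while Rpl3 shared 62.0% of its words. Reads without a unique alignment are not counted, so the order of these levels is uncertain. Castration of wild-type mice lowered Rpl3l by 0.35 ± 0.11 (edgeR adjusted p = 0.0136), while Rpl3 had a log2 fold change of 0.36 ± 0.14 and was higher (edgeR adjusted p = 0.043); the difference between the genes was not tested. Rpl3l did not pass in the other 4 comparisons.

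Rpl22 had 202 to 303 CPM and did not pass in any comparison, with log2 changes of 0.08 to 0.19. Its paralogue Rpl22l1 had 12.4 to 30.3 CPM and was higher after castration of wild-type mice (0.55 ± 0.17, edgeR adjusted p = 0.0116). Rpl36al was higher in gene-trap sham ventricles (1.27 ± 0.37, edgeR adjusted p = 0.0235), as was Rpl36a, and higher in wild-type castrated ones (0.90 ± 0.33), where Rpl36a had 0.17 ± 0.11 and did not pass. Rps27l was higher in wild-type castrated than in sham ventricles (0.34 ± 0.13, edgeR adjusted p = 0.038), where Rps27 had -0.36 ± 0.16 and did not pass. Rpl7 fell in gene-trap sham (by 0.32) and wild-type castrated ventricles (by 0.31), and Rpl7l1 passed in no comparison, with log2 changes between -0.13 and 0.08.

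Of the genes of the cytosolic ribosome that the naming rule leaves out, Fau, which encodes a small-subunit protein fused to a ubiquitin-like protein, and Rack1, a signalling scaffold on the small subunit, passed in none of the 5 comparisons.

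Genes that make or serve the ribosome also had calls in both directions. Over all genes tested, 11.9% were higher and 14.3% lower in gene-trap sham ventricles, and 19.1% and 21.3% in wild-type castrated ventricles. For the difference between genotypes the shares were 11.8% above and 8.36% below 0. A list count near these shares, here and in the next paragraphs, is no result about that list. Mitochondrial ribosomal protein genes, whose products translate the mitochondrial genome, had 12 higher and 12 lower of 75 in gene-trap sham ventricles (median -0.06) and 12 higher and 38 lower of 77 in wild-type castrated ventricles (median -0.27), Mrpl37 among the lower (-0.84). In gene-trap castrated ventricles 0 of 77 passed against wild-type castrated ones in edgeR (median 0.21). At an unadjusted edgeR p under 0.05, 31 were higher and 1 lower, with no share over all genes given. Of the mitochondrial ribosomal protein genes, 22 were above and 5 below 0 in the test of the difference between genotypes.

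Ribosome biogenesis factors had 13 higher and 5 lower of 69 in gene-trap sham and 12 higher and 16 lower of 69 in wild-type castrated ventricles. The box C/D core protein Nop58 was higher in gene-trap sham ventricles (0.64 ± 0.14) and the assembly factor Pes1 lower (-0.83 ± 0.19), and Sbds, which readies the large subunit for joining, was higher in wild-type castrated ventricles (1.47 ± 0.31). RNA polymerase I genes had 2 higher and 2 lower of 15 and 1 higher and 5 lower of 15 in the same comparisons, Polr1a, its largest subunit, among those lower after castration (-0.55 ± 0.14). Small nucleolar RNA host genes had 3 higher and 1 lower of 13 and 6 higher and 1 lower of 14, with Gas5 higher in gene-trap sham ventricles (0.91 ± 0.14).

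Other messenger RNAs known to carry the oligopyrimidine tract had 7 higher and 4 lower of 19 in gene-trap sham and 7 higher and 6 lower of 21 in wild-type castrated ventricles. Naca, a subunit of the nascent-chain complex at the tunnel exit, was higher in gene-trap sham ventricles (0.97 ± 0.13), and the elongation factor Eef2 was lower in them (-0.59 ± 0.15) and in wild-type castrated ones (-0.67 ± 0.14), where Eef1a1 was higher (0.63 ± 0.13). Initiation factors had 9 higher and 11 lower of 45, and 7 higher and 14 lower of 45, with the Y-linked subunit gene Eif2s3y higher in gene-trap sham ventricles (1.79 ± 0.28) and the scaffold Eif4g1 lower in wild-type castrated ones (-0.61 ± 0.10). Elongation and release factors had 2 higher and 2 lower, and 4 higher and 4 lower, of 14.

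Regulators of the translation of these messages had 3 higher and 4 lower of 18 in gene-trap sham and 5 higher and 4 lower of 18 in wild-type castrated ventricles. The kinase gene Mtor was higher in gene-trap sham ventricles (0.45 ± 0.11), and Rps6kb2, an S6 kinase gene, was lower in gene-trap sham (-0.74 ± 0.19) and wild-type castrated ventricles (-0.92 ± 0.19). Eif4ebp1, an mTOR target that blocks cap-dependent initiation, was the only gene of these lists called after castration of gene-trap mice (0.75 ± 0.16, edgeR adjusted p = 0.035). In castrated mice 0 genes of these lists passed between the genotypes in edgeR. Without adjustment, 0 to 31 genes per list had an edgeR p under 0.05 with a higher level and 0 to 6 with a lower one. The share over all genes at that threshold is not given.

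Ribosomal protein pseudogenes took 0.00651 to 0.0139% of gene counts per library. Of the 10 tested in sham-operated mice 2 were higher and 1 lower in gene-trap ventricles, against 11.9% and 14.3% over all genes. The higher ones were Rps27a-ps1 (0.94 ± 0.25) and Rpl31-ps14 (1.29 ± 0.34). Both were at a low level: in wild-type sham libraries Rps27a-ps1 had 6 to 21 counts and Rpl31-ps14 2 to 13 counts. Tags of these pseudogenes and of their parent genes cannot always be told apart.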

How the data were processed

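Libraries were made with the QuantSeq 3′ mRNA forward kit from left ventricle RNA, per the labels' protocols. Per the submitters' processing notes, the tools were STAR, featureCounts 1.6.0, CASAVA 1.4, FastQC and DESeq2 1.22.2, and GRCm38 (mm10) was the build; their roles and the strand setting are not stated in the labels used here. The deposited tables hold raw counts per gene and library, and the authors' comparison of the genotypes within each surgery group: a mean normalised signal, a log2 fold change of wild type over gene trap, its standard error and test statistic as scores, and p-values and adjusted p-values. The authors' table for sham-operated mice gives a mean above 0 to 414 genes that have 0 counts in all of these sham libraries, so it was not made from these columns alone.

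Counts were tested as deposited with edgeR 4.0.16 (R 4.3.3; quasi-likelihood test, robust, TMM scaling, filterByExpr), with Benjamini-Hochberg adjustment over all genes tested at 0.05. The genotypes were fitted within each surgery group, and the castration effects and their difference in 1 fit of the 4 groups, with no batch term since the labels give none. SE is the log2 fold change divided by the root of F. Levels are CPM with TMM factors from all 26 libraries; correlations used log2 CPM with a prior count of 2. Reads without a unique alignment (41.9 to 46.8% of the reads tallied per library), without a gene (2.66 to 4.62%) or ambiguous (0.277 to 0.358%) were left out of library sizes. A count of 3 in a library corresponds to 0.319 to 0.472 CPM, and changes below that level are not resolved. All columns of per-sample values were mapped by name. GC content and shared 31-nt words were taken from the last 400 nt of GENCODE M21 transcripts (GRCm38), and promoter windows from RefSeq (GRCm38.p6). The fit was tested on simulated data.

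The labels name the libraries as separate samples and do not state how animals, litters or preparation days relate, so the p-values cover only how these libraries vary, which may be technical. No pair of libraries in a group agreed within sampling noise (chi-square per gene 4.58 to 69.8 over 72 pairs). The genes and the lists were chosen with earlier results of these data known. Genes named are those called, at most 8 per direction and comparison by p, the paralogue pairs, the stalk genes and Rpsa, the 5 highest and lowest levels, the 5 most and least correlated members, and at most 4 called genes per list and comparison; Rpl35a and Rps28 were named after their values were seen, since their groups did not overlap. Some genes that this rule covers are not reported here, though counts, sums and medians over all genes include them. Alternatives were DESeq2 1.42.0 (size factors and Wald test), other filters on low counts, leaving out mitochondrially encoded genes or each library, a replicate block, the share of reads without a unique alignment as a covariate, a joint fit and a threshold of 0.01. Removal of the GC trend (a lowess curve, span 0.3) and leaving out gene-trap castrated replicates 1 to 4 were added after seeing the data.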

Additional observations from a re-analysis of the deposited data

Results flagged for a closer look

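In 22 of 188 groups of values (CPM of named ribosomal protein genes, and their summed share of counts), 1 library lay far from the others of its group; chance gives about 5% of groups, and genes of one library are not independent. Wild-type castrated replicate 5 was high in 7 genes: Rpl23a had 275 CPM, against 144 to 200 CPM in the other libraries of the group, Rpl36 215 against 119 to 140 CPM, Rpl7 206 against 113 to 144 CPM, Rps12 334 against 166 to 237 CPM, Rps14 1871 against 784 to 1109 CPM, Rps19 381 against 166 to 220 CPM and Rps29 558 against 389 to 439 CPM. Of these 7 genes, 6, all but Rps12, had passed the edgeR test as lower after castration of wild-type mice. Wild-type castrated replicate 2 was high in 5 genes: Rpl22 had 284 CPM, against 216 to 244 CPM, Rpl28 170 against 81.9 to 118 CPM, Rpl36a 201 against 144 to 161 CPM, Rpl4 414 against 205 to 242 CPM and Rps23 239 against 79.9 to 144 CPM.

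Gene-trap sham replicate 5 was high in Rpl23a (269 CPM, against 162 to 185 CPM), Rps10 (257 against 163 to 182 CPM), Rps12 (318 against 190 to 221 CPM) and Rps19 (305 against 174 to 211 CPM). Wild-type sham replicate 6 was low in Rpl37a (399.7 CPM, against 543 to 565 CPM), Rpl8 (355 against 529 to 598 CPM) and Rps29 (483 against 581 to 626 CPM). Gene-trap castrated replicate 3 was high in Rpl7l1 (31.8 CPM, against 21.5 to 25.8 CPM) and Rps27l (117 against 86.5 to 98.6 CPM), and wild-type sham replicate 4 in Rpl3l (363 CPM, against 258 to 296 CPM).

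The castration effect differed between gene-trap and wild-type mice, by the test of the difference in edgeR, for 17 of the named genes. The differences on the log2 scale were 1.39 for Rpsa, 1.18 for Rpl36, 1.09 for Rps10, 1.08 for Rplp1, 1.02 for Rps27, 0.94 for Rpl8, 0.84 for Rps4x, 0.83 for Rpl26, 0.77 for Rpl19, 0.74 for Rpl23a, 0.72 for Rpl37a, 0.72 for Rps15, 0.65 for Rplp2, 0.58 for Rpl41, 0.54 for Rps29, 0.46 for Rpl7 and -0.86 for Rps27a. As in the whole set, none passed without gene-trap castrated replicates 1 to 4.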

How the results depend on the processing

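In gene-trap against wild-type sham mice, 17 genes higher and 11 lower became 8 and 5 at a threshold of 0.01, 9 and 1 in the authors' deposited table, and 0 and 0 with the share of reads without a unique alignment as a covariate; leaving out 1 library gave 13 to 23 higher and 6 to 19 lower. In castrated mice, 6 higher became 33 by DESeq2, 13 with no filter, 13 with the GC trend removed, 23 in the joint fit, 38 in the authors' deposited table, and 0 with the replicate block, with the covariate, without gene-trap castrated replicates 1 to 4, or at 0.01; leaving out 1 library gave 0 to 31 higher and 0 lower. After castration of wild-type mice, 19 higher became 12 with no filter and 9 at 0.01, and 23 lower became 7 with the covariate, 15 with the GC trend removed and 15 at 0.01; leaving out 1 library gave 11 to 21 higher and 16 to 26 lower. After castration of gene-trap mice, 3 higher became 10 by DESeq2, 6 with no filter, 5 without mitochondrially encoded genes, 11 with the replicate block, 7 with the GC trend removed, and 0 with the covariate, without gene-trap castrated replicates 1 to 4, or at 0.01; leaving out 1 library gave 0 to 13 higher and 0 lower. For the difference between genotypes, 29 genes above 0 became 10 at 0.01 and 0 with the covariate or without gene-trap castrated replicates 1 to 4; the 1 gene below 0 became 3 by DESeq2, 7 with the replicate block, and 0 with the covariate, without those 4 libraries, or at 0.01; leaving out 1 library gave 22 to 34 above and 1 to 6 below 0. Other settings kept these counts within 1.5 times. The authors' deposited tables called 1376 genes in sham and 515 genes in castrated mice in all. Counts over all genes under the alternatives run here are not given. Member counts under them therefore have no background share beside them. The labels do not say whether replicate numbers pair animals. Same-numbered libraries correlated between -0.40 and 0.32 in their deviations from the group means. These values cannot settle whether the numbers pair animals. Of 142 results for genes chosen to be named, list genes included, 3 changed sign, all with the GC trend removed: Rpl36 (0.0047) and Eef1a2 (0.26, against -0.46 as tested) in sham mice, and Eef1a2 in the difference between genotypes (-0.48, against 0.52). DESeq2's Wald test kept the call of all 142, edgeR with DESeq2's size factors that of 138, and the covariate that of 46. The covariate had medians of 45.9% in gene-trap castrated, 42.6% in gene-trap sham, 42.3% in wild-type castrated and 44.5% in wild-type sham libraries. Since it differed between the groups compared, a fit with it cannot fully separate group and share. The causes were not tested.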
